A study of Mus musculus with 6 samples.

Results

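The immunoglobulin constant region genes and the J chain gene were described in ovarian RNA of mice of high and low litter size. The set held 10 genes, listed by name and found by symbol through their Ensembl identifiers. They were the heavy chain genes Ighm, Ighd, Igha, Ighg1, Ighg2b, Ighg2c and Ighg3, the light chain genes Igkc and Iglc2, and Jchain. All 10 were among the 36727 genes of the deposited table, each as 1 row, and all 10 passed the filter on low counts that left 16455 genes for testing. Polyadenylated RNA was sequenced from ovaries of female F4 inbred Swiss albino mice aged 135 to 140 days, with the tissue labelled as being in the estrous phase. The high litter size group had 3 libraries (replicates 1, 3 and 4) and the low litter size group had 3 (replicates 1, 2 and 5). The labels give no difference between the groups other than litter size, and they state no litter counts. They do not say whether the libraries came from separate animals, so every p below measures the spread between these libraries, which may be technical. The study's stated aim was to find ovarian genes related to fitness.

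Antibodies are built from paired heavy and light chains. The constant region of the heavy chain sets the isotype, and B cells that start with IgM and IgD can switch to IgG, IgE or IgA by bringing a downstream constant region gene next to the variable region. B cells carry antibody in the membrane, whereas plasma cells secrete it in large amounts and fill their RNA with immunoglobulin transcripts. J chain joins IgA into dimers and IgM into pentamers, and the polymeric immunoglobulin receptor carries these polymers across epithelium into secretions. The mucosa of the female reproductive tract is known to hold antibody-secreting cells, and their number there varies with steroid hormones.

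Total estimated counts per library ran from 17620903 to 24758222, and the 6 libraries did not hold equal amounts of ovarian cell types. CPM stands for counts per 1000000 counts of the library, with TMM factors applied to the library totals. The summed level of 7 granulosa cell genes was 30.7, 17.3 and 398 CPM for high replicates 1, 3 and 4, against 276, 25.1 and 225 CPM for low replicates 1, 2 and 5. Inha, a chain of the hormone inhibin made by granulosa cells, had 1.63, 2.12 and 199 CPM across the high litter size libraries, against 182, 1.22 and 110 CPM across the low ones, and Zp3, a protein of the egg coat, was at 0 in high replicate 1 and low replicate 2. High replicates 1 and 3 and low replicate 2 thus held little of these defining ovarian genes, and the results are also given without them. The summed level of 8 uterus genes was 761, 931 and 3815 CPM across the high litter size libraries, against 14533, 5228 and 3568 CPM across the low ones, and its part in the antibody levels was not tested. Most of it was Ltf, a secreted protein of uterine epithelium and neutrophils, except in high replicate 1. Without Ltf the other 7 genes summed to 672, 119 and 137 CPM across the high litter size libraries, against 411, 560 and 387 CPM across the low ones, with high replicate 1 the highest of the 6. In bulk tissue, fewer cells of a type and less RNA per cell cannot be told apart.

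None of the 10 genes passed the test of high against low litter size (edgeR quasi-likelihood test, Benjamini-Hochberg adjusted over all genes, threshold 0.05; adjusted p from 0.245 to 0.955), where 0.00608% of all genes tested passed. At an unadjusted p under 0.05 there were 2 of the 10, Iglc2 and Ighm, against 14.4% of all genes. The high and low libraries did not overlap for 2 of the 10, again Iglc2 and Ighm, against 19.5% of all genes. DESeq2 called 1 of the 10, Iglc2, where it called 6.56% of the genes for which it gave an adjusted p. The log2 fold changes, high minus low, were negative for 8 of the 10 and positive for Ighm and Ighg1. Their median was -0.88, and that of all genes tested was 0.068.

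**Figure D1:**
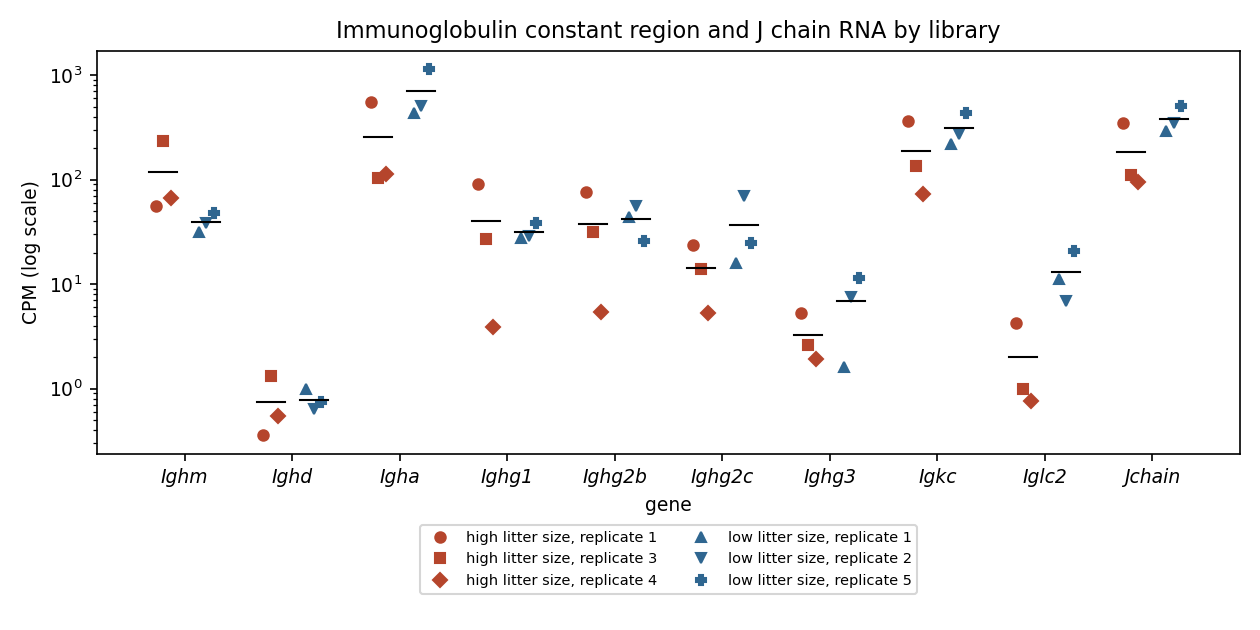
Level of each gene in each library, in CPM on a log axis, with the 3 high litter size libraries left of the 3 low litter size libraries, each point 1 library and each black bar a group mean. The groups separate for Ighm, higher in the high libraries, and Iglc2, lower in the high libraries, and overlap for the other 8 genes.

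Igha, the heavy chain constant region of IgA, was the most abundant heavy chain gene per kilobase of transcript in 5 of the 6 libraries. Its level was 553, 104 and 115 CPM for high replicates 1, 3 and 4, against 438, 513 and 1147 CPM for low replicates 1, 2 and 5. High replicates 3 and 4 lay below all low libraries, and high replicate 1 lay inside the low range. The log2 fold change was -1.44 (SE 0.76, edgeR adjusted p = 0.442). It was -2.69 without high replicate 1 and -0.89 without low replicate 5, so the size of the difference rests on single libraries. Without the 3 libraries low in granulosa genes it was -2.82 (edgeR adjusted p = 0.489). That setting compares 1 high library with 2 low ones, and the lone library is assumed to vary like the others. It does not match the libraries in other cell types. High replicate 4 had 9247 CPM of summed luteal genes, against 743 and 2985 CPM in low replicates 1 and 5. Its oviduct genes summed to 1584 CPM, against 75.7 and 476 CPM, and its stratified epithelium genes to 489 CPM, against 18.5 and 4.24 CPM in those low libraries. Igha (ENSMUSG00000095079) lies on chromosome 12, chr12:113254830-113260236 on the minus strand (GRCm38, GENCODE M21 annotation), at the downstream end of the heavy chain cluster.

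Ighm, the constant region of IgM and the first one that a B cell uses, showed the reverse order of groups. It had 56.3, 235 and 66.7 CPM across the high litter size libraries, against 31.5, 38.8 and 48.3 CPM across the low ones. All 3 high libraries lay above all 3 low libraries, and high replicate 3 was far above the rest. The log2 fold change was 1.59 (SE 0.57, edgeR adjusted p = 0.309). Without high replicate 3 it was 0.63 (edgeR adjusted p = 0.374), and without the 3 libraries low in granulosa genes it was 0.71 (edgeR adjusted p = 0.591). High replicate 3 also had the highest summed adipocyte and red cell markers. The 7 adipocyte genes summed to 2520, 21376 and 1927 CPM across the high litter size libraries, against 209, 2731 and 676 CPM across the low ones. The 5 red cell genes summed to 190, 2338 and 292 CPM across the high litter size libraries, against 200, 368 and 128 CPM across the low ones. The part of either in the Ighm level was not tested. Ighm (ENSMUSG00000076617) lies at chr12:113418558-113422730, minus strand, GRCm38.

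The last coding bases of the secreted forms of Ighm and Igha are shown because they hold the tailpiece, the stretch through which these isotypes join into polymers with J chain, while IgG chains lack it. Each run is the final 60 bases before the stop codon of the shortest annotated transcript (GENCODE M21, GRCm38, minus strand), and capitals mark a cysteine codon in the second to last position.
Ighm, chr12:113420870-113420929: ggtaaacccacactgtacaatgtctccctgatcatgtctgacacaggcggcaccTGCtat
Igha, chr12:113258771-113258830: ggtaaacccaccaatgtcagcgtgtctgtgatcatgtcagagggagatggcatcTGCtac
Ighg2b, chr12:113306392-113306451: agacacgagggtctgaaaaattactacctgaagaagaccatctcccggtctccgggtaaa
Ighm and Igha both ended in this cysteine codon followed by a tyrosine codon. None of Ighd, Ighg1, Ighg2b, Ighg2c and Ighg3 had a cysteine codon there.

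Jchain, which encodes the joining chain, followed Igha across the libraries. It had 346, 112 and 94.7 CPM across the high litter size libraries, against 291, 346 and 508 CPM across the low ones. High replicates 3 and 4 were the lowest of the 6, as for Igha, and high replicate 1 lay among the low libraries. The log2 fold change was -1.05 (SE 0.55, edgeR adjusted p = 0.436), -1.91 without high replicate 1 and -2.11 without the 3 libraries low in granulosa genes (edgeR adjusted p = 0.481). Jchain (ENSMUSG00000067149) is the only one of the 10 outside the immunoglobulin loci, at chr5:88519809-88527891 on the minus strand (GRCm38). Its counts per kilobase, divided by those of Igha and Ighm together, gave 0.46, 0.318 and 0.457 for high replicates 1, 3 and 4, against 0.498, 0.505 and 0.339 for low replicates 1, 2 and 5. The ratio spanned a narrow range in comparison with the genes themselves, and the groups overlapped. The difference of its log2 means, high minus low, was -0.12, less than the spread within either group (SD 0.31 and 0.33, n = 3 each; exact two-sided permutation p = 0.5, and 3 against 3 libraries cannot give less than 0.1).

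Ighd, the constant region of IgD carried by naive B cells, was close to the detection limit. It had 7, 21 and 11 counts across the high litter size libraries, against 17, 12 and 19 counts across the low ones, with a log2 fold change of -0.10 (SE 0.59, edgeR adjusted p = 0.955). The sign of this value turned when high replicate 1, high replicate 4 or low replicate 1 was left out. Per kilobase, Ighm exceeded Ighd 84.7, 96.3 and 64.9 times across the high litter size libraries, against 17.3, 32.6 and 35.1 times across the low ones. The 3 high libraries all had the larger ratio, which was not tested and rests on few Ighd counts. Ighe, the constant region of IgE and not one of the 10, had 14, 1 and 5 counts across the high litter size libraries, against 7, 13 and 13 counts across the low ones and did not reach the filter.

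Ighg1 and Ighg2b varied more among the high libraries than among the low ones. Ighg1, the constant region of IgG1, had 90.7, 27.0 and 3.87 CPM across the high litter size libraries, against 27.9, 28.7 and 38.4 CPM across the low ones. High replicate 1 held the highest and high replicate 4 the lowest of the 6 values, and the log2 fold change was 0.36 (SE 0.92, edgeR adjusted p = 0.888). It was -1.08 without high replicate 1 and 0.88 without high replicate 4. Without the 3 libraries low in granulosa genes it was -3.13 (edgeR adjusted p = 0.444). Ighg2b, the constant region of IgG2b, had 76.4, 31.3 and 5.37 CPM across the high litter size libraries, against 43.6, 56.3 and 25.7 CPM across the low ones. Its order of high libraries was the same as for Ighg1, and its log2 fold change was -0.15 (SE 0.82, edgeR adjusted p = 0.948). That value was -1.23 without high replicate 1, 0.35 without high replicate 4 and 0.12 without low replicate 2. Without the 3 libraries low in granulosa genes it was -2.72 (edgeR adjusted p = 0.461).

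Ighg2c, the constant region of IgG2c, had 23.7, 14.0 and 5.27 CPM across the high litter size libraries, against 15.97, 70.3 and 24.7 CPM across the low ones. Low replicate 2 stood above the other 5 libraries, and the log2 fold change of -1.37 (SE 0.71, edgeR adjusted p = 0.436) was -0.51 without it. Ighg3, the least abundant IgG gene, had 5.31, 2.62 and 1.91 CPM across the high litter size libraries, against 1.61, 7.45 and 11.6 CPM across the low ones. Low replicate 1 was the lowest of the 6 and low replicate 5 the highest. Its log2 fold change was -1.07 (SE 0.75, edgeR adjusted p = 0.558), and -1.63 without high replicate 1 and -0.47 without low replicate 5. Without the 3 libraries low in granulosa genes Ighg2c had -1.98 (edgeR adjusted p = 0.481) and Ighg3 -1.82 (edgeR adjusted p = 0.678). Ighg1 lies at chr12:113325240-113330523, Ighg2b at chr12:113302965-113307933, Ighg2c at chr12:113285325-113288932 and Ighg3 at chr12:113356224-113361232, all on the minus strand of GRCm38.

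Within IgG, the subclass in front changed from library to library. Per kilobase, Ighg1 made up 47.1, 36.8 and 24.1% of IgG across the high litter size libraries, against 32.0, 18.1 and 38.9% across the low ones. Ighg2b made up 38.3, 41.2 and 32.3% across the high litter size libraries, against 48.4, 34.3 and 25.2% across the low ones. Ighg2c led in low replicate 2 alone, with 42.9%, and had 11.9, 18.5 and 31.8% across the high litter size libraries, against 17.8 and 24.3% in low replicates 1 and 5. Ighg3 had 2.74, 3.55 and 11.8% across the high litter size libraries, against 1.84, 4.67 and 11.6% across the low ones. These shares overlapped between the groups for all 4 genes.

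The hinge exons of the 4 IgG genes are shown because the hinge, the flexible link that holds the heavy chains together through disulfide bonds, differs between IgG subclasses and separates their transcripts. Each is the second exon of the shortest annotated transcript (GENCODE M21, GRCm38, minus strand), with cysteine codons in capitals.
Ighg1, chr12:113329844-113329882: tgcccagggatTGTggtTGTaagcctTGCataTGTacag
Ighg2b, chr12:113307261-113307326: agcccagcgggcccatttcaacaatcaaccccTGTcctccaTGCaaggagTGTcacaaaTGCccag
Ighg2c, chr12:113288263-113288325: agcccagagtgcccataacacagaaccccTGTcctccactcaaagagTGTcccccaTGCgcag
Ighg3, chr12:113360529-113360576: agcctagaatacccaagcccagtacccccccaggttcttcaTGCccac
These exons were 39, 66, 63 and 48 bases long in Ighg1, Ighg2b, Ighg2c and Ighg3 and held 4, 4, 3 and 1 cysteine codons. Elsewhere the IgG genes are alike, and kallisto, the program named in the submitters' processing notes, divides reads between transcripts that share sequence. Of the 31-base words in the transcripts of Ighg2c, 14.98% also occurred in another constant region gene, mostly in Ighg2b, and the share was 9.29% for Ighg2b, 3.63% for Ighg3 and 1.72% for Ighg1. Ighm, Ighd, Igha, Igkc and Jchain shared 0 such words with the 13 other genes compared. Some mouse strains carry Ighg2a in the place of Ighg2c. The table held no row for Ighg2a, and no source used here states which allele these mice carry, so the level assigned to Ighg2c and Ighg2b is uncertain.

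IgA made up most of the heavy chain RNA in all libraries but high replicate 3, where IgM had the largest share. Shares were computed from counts divided by transcript length, over the 7 heavy chain genes. Igha had 69.8, 29.5 and 63.3% for high replicates 1, 3 and 4, against 79.4, 72.8 and 89.3% for low replicates 1, 2 and 5. The 3 high libraries lay below the 3 low libraries, although high replicate 1 and low replicate 2 were close. As a share of counts as deposited, Igha had 68.6% in high replicate 1 (95% exact binomial interval 67.9 to 69.3%) and 71.7% in low replicate 2 (71.0 to 72.5%), intervals that cover counting error only. The mean share was 54.2 ± 21.7% for high litter size, against 80.5 ± 8.3% for low litter size (SD, n = 3 each), a difference of -26.3 percentage points (exact two-sided permutation p = 0.1, the smallest possible; adjusted over the 7 library quantities tested here, p = 0.233). Without high replicate 3 the difference was -13.9 points. In high replicate 4, the one high library not low in granulosa genes, against low replicates 1 and 5 it was -21.0 points.

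**Figure D2:**
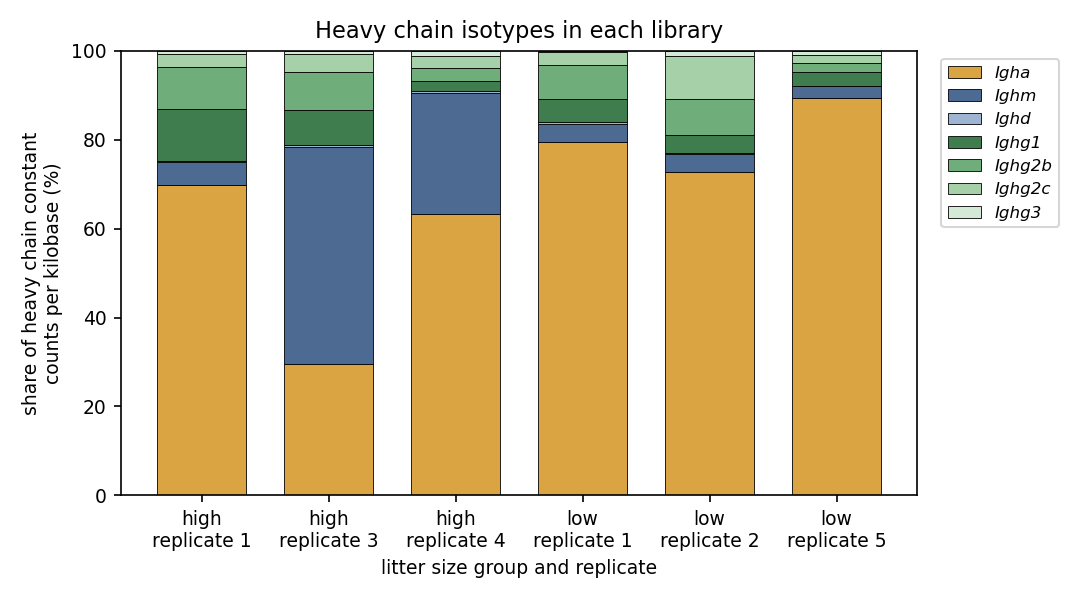
Share of each heavy chain isotype in each library, in percent of heavy chain constant region counts per kilobase, with the 3 high litter size libraries on the left. Igha takes 29.5 to 69.8% of the high bars and 72.8 to 89.3% of the low bars, and Ighm is the largest part of high replicate 3.

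The share of IgM and IgD together differed in the other direction. It was 5.30, 49.3 and 27.6% across the high litter size libraries, against 4.45, 4.18 and 2.85% across the low ones, nearly all of it Ighm. The low libraries fell within a narrow band below all high libraries, and high replicate 1 lay just above that band. The means were 27.4 ± 22.0% for high litter size, against 3.83 ± 0.86% for low litter size (SD, n = 3 each), a difference of 23.6 points (exact two-sided permutation p = 0.1, adjusted p = 0.233) that was 12.6 points without high replicate 3 and 23.9 points without the 3 libraries low in granulosa genes. The IgG share was 24.9, 21.2 and 9.08% across the high litter size libraries, against 16.1, 23.0 and 7.85% across the low ones. Both groups covered much the same range, with a difference of 2.72 points (exact two-sided permutation p = 0.7) that turned negative when high replicate 1 or low replicate 5 was left out.

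The amount of heavy chain RNA also varied between libraries. The 7 genes summed to 806, 415 and 198 CPM across the high litter size libraries, against 560, 715 and 1296 CPM across the low ones. High replicates 3 and 4 were the lowest, and high replicate 1 was the second highest of the 6. The difference of log2 means was -0.99 (SD 1.012 in the high and 0.62 in the low group, n = 3 each; exact two-sided permutation p = 0.3), and it ranged from -1.49 without high replicate 1 to -0.47 without high replicate 4. It was -2.10 without the 3 libraries low in granulosa genes, a value with no test. Constant region genes of both chains took 0.127, 0.0463 and 0.0300% of all counts across the high litter size libraries, against 0.0781, 0.0977 and 0.183% across the low ones.

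Igkc, the constant region of the kappa light chain, made up nearly all light chain RNA. It had 362, 135 and 72.9 CPM across the high litter size libraries, against 221, 273 and 439 CPM across the low ones. The order of the 6 libraries was that of the summed heavy chains, with low replicate 5 highest and high replicate 4 lowest. The log2 fold change was -0.71 (SE 0.60, edgeR adjusted p = 0.636), with values of -1.61 without high replicate 1, -0.35 without high replicate 4 and -0.38 without low replicate 5. Without the 3 libraries low in granulosa genes it was -2.21 (edgeR adjusted p = 0.481). Igkc (ENSMUSG00000076609) lies on chromosome 6 at chr6:70726435-70726966, plus strand, GRCm38. Light over heavy chain counts per kilobase gave ratios of 0.961, 0.803 and 0.863 across the high litter size libraries, against 0.882, 0.838 and 0.756 across the low ones. This ratio varied little across all 6 libraries, and its groups overlapped (exact two-sided permutation p = 0.5).

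Iglc2, a constant region of the lambda light chain, had the largest log2 fold change in size of the 10 genes. It had 4.24, 0.997 and 0.753 CPM across the high litter size libraries, against 11.2, 6.92 and 20.7 CPM across the low ones. The values rest on 83, 16 and 15 counts across the high litter size libraries, against 194, 130 and 533 across the low ones. All 3 high libraries lay below all 3 low libraries. Its mean was 1.995 ± 1.94 CPM for high litter size, against 12.9 ± 7.08 CPM for low litter size (SD, n = 3 each), and the log2 fold change was -2.69 (SE 0.79, edgeR adjusted p = 0.245). DESeq2 gave an adjusted p of 0.0114, where it called 6.56% of all genes given an adjusted p. The edgeR likelihood ratio test gave 0.0361, and the share of all genes that it called is not given here. The log2 fold change stayed between -3.90 and -2.17 when any 1 library was left out, and it was -4.43 without the 3 libraries low in granulosa genes (edgeR adjusted p = 0.444). Iglc2 (ENSMUSG00000076937) lies on chromosome 16 at chr16:19198396-19200351, minus strand, GRCm38. Of its 31-base words 18.2% also occurred in Iglc3, its near copy, so a part of the reads could go to either.

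In high replicates 3 and 4 the counts of Iglc1, another lambda constant region, exceeded those of Iglc2. Iglc1 had 0.612, 1.18 and 1.31 CPM across the high litter size libraries, against 0.577, 3.62 and 3.97 CPM across the low ones (log2 fold change -1.40, SE 0.76, edgeR adjusted p = 0.452). Iglc3 had 5, 4 and 2 counts across the high litter size libraries, against 6, 11 and 31 across the low ones, and Iglc4 had counts in low replicate 1 only, where it had 2. Within lambda, Iglc2 took 82.9, 40.8 and 34.7% per kilobase across the high litter size libraries, against 91.0, 62.0 and 79.9% across the low ones.

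Lambda formed a smaller part of the light chain constant region RNA in every high library than in any low library. Of light chain counts, 1.39, 1.77 and 2.87% were lambda for high replicates 1, 3 and 4, against 5.24, 3.92 and 5.57% for low replicates 1, 2 and 5. The closest pair was high replicate 4, with a 95% exact binomial interval of 2.09 to 3.85% from 43 lambda counts, and low replicate 2, with 3.42 to 4.48% from 209. These intervals overlapped. Per kilobase the mean was 2.34 ± 0.90% for high litter size, against 5.68 ± 0.999% for low litter size (SD, n = 3 each). The difference was -3.34 percentage points (exact two-sided permutation p = 0.1, adjusted p = 0.233), from -3.90 to -2.96 points with 1 library left out, and -2.90 points without the 3 libraries low in granulosa genes.

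**Figure D3:**
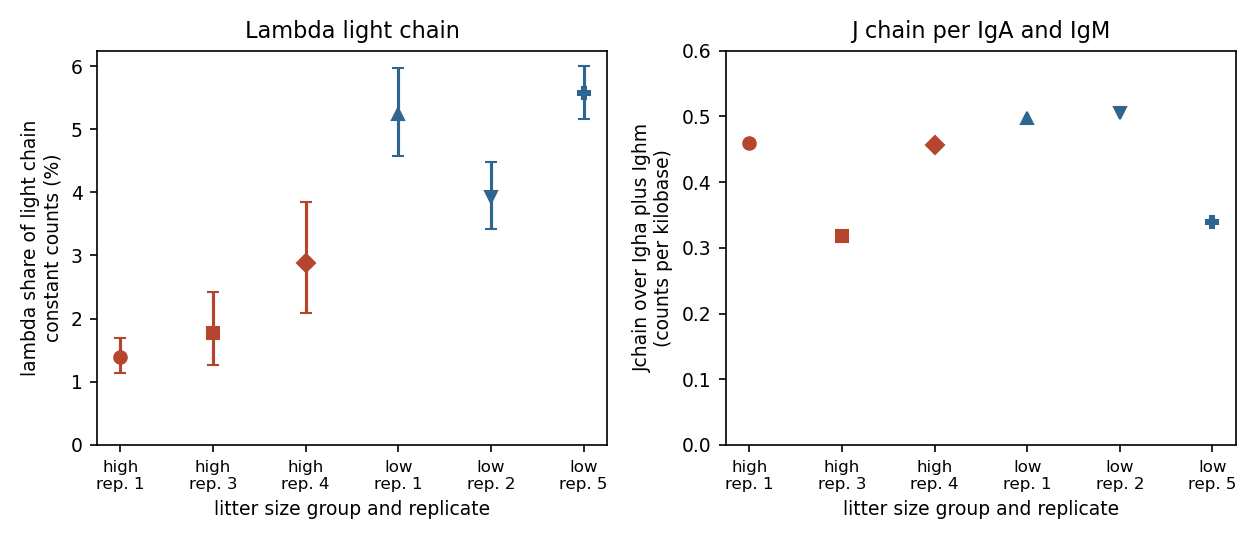
Lambda share of light chain constant region counts in percent, with 95% exact binomial intervals (left), and Jchain over the sum of Igha and Ighm in counts per kilobase (right), with each point 1 library and the high litter size libraries on the left of each panel. The lambda share is 1.39 to 2.87% in the high and 3.92 to 5.57% in the low libraries, while the J chain ratio of the groups overlaps.

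Variable segments gave the following sums, read beside the constant regions. The 160 kappa variable genes summed to 302, 107 and 68.6 CPM across the high litter size libraries, against 199, 235 and 403 CPM across the low ones, or 0.793 to 0.941 counts per Igkc count in the high and 0.861 to 0.918 in the low libraries. The 185 heavy chain variable genes gave 0.167, 0.174 and 0.136 counts per heavy chain constant count across the high litter size libraries, against 0.524, 0.375 and 0.265 across the low ones, without overlap of the groups. The 3 lambda variable genes gave 1.93, 2.36 and 2.79 counts per lambda constant count across the high litter size libraries, against 1.53, 1.68 and 1.42 across the low ones, without overlap and in the opposite direction. As a part of light chain variable counts, lambda overlapped between the groups. High replicate 4 had 120 lambda and 1367 kappa variable counts, a larger lambda part than the 351 and 4409 of low replicate 2. None of these variable segment values was tested.

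**Figure D4:**
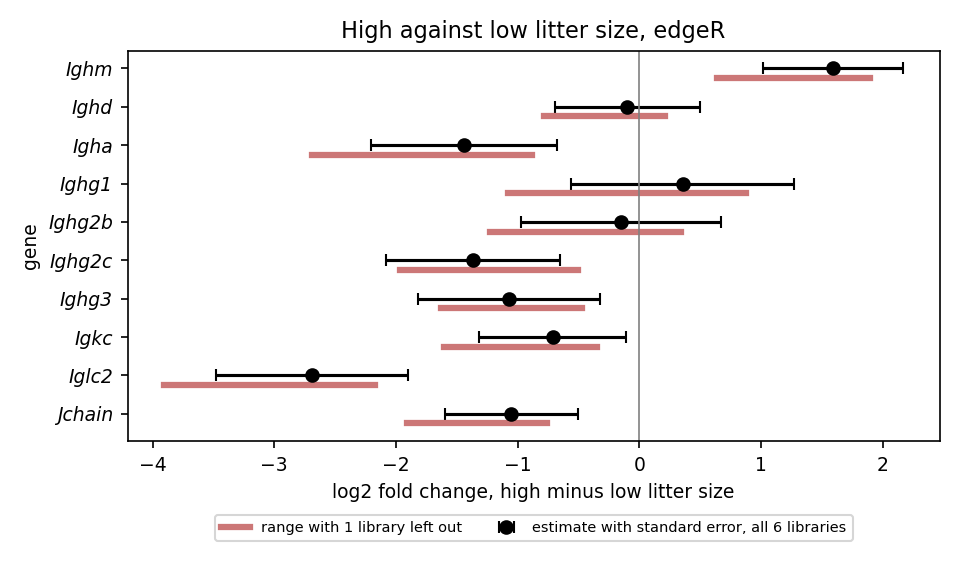
Log2 fold change of each gene, high minus low litter size, with its standard error in edgeR (black) and the range when 1 library is left out (red). The points run from -2.69 for Iglc2 to 1.59 for Ighm, and the leave-out ranges of Ighd, Ighg1 and Ighg2b cross 0.

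Genes of B cells and plasma cells were set beside the antibody genes, using lists chosen with earlier results of these data known. In the B cell list 0 of 10 tested genes passed in either direction. An unadjusted p under 0.05 was found for 2, both higher in the high group, against 14.4% of all genes in either direction. The list's median log2 fold change was 0.23, against 0.068 for all genes. The sum of its 12 genes was 88.0, 129 and 41.3 CPM across the high litter size libraries, against 23.4, 47.3 and 45.5 CPM across the low ones, most of it from Ebf1. Ebf1, a transcription factor of B cells that fat and stromal cells also express, had 70.4, 105 and 26.6 CPM across the high litter size libraries, against 10.03, 29.4 and 22.5 CPM across the low ones (log2 fold change 1.70, SE 0.58, edgeR adjusted p = 0.298). Without Ebf1 the remaining 11 genes summed to 17.6, 24.6 and 14.7 CPM across the high litter size libraries, against 13.3, 17.9 and 23.0 CPM across the low ones, and the groups overlapped.

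Individual B cell genes had fold changes of both signs. Cd22, an inhibitory receptor of B cells, had a log2 fold change of 1.49 (SE 0.55, edgeR adjusted p = 0.314), with all high libraries above all low ones. Cd79b, a signalling chain of the B cell receptor, had -0.72 (SE 0.39, edgeR adjusted p = 0.445), with all high libraries below all low ones. Blk, a kinase of the same receptor, had -2.21 (SE 0.98, edgeR adjusted p = 0.37), and 5.64 CPM in low replicate 5 against 0.255 to 0.958 CPM in the other 5 libraries. High replicate 3, where Ighm was highest, had 1.31 CPM of Cd79a, the other signalling chain, named after its values were seen, against 0.803 to 3.11 CPM in the other 5.

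In the plasma cell and antibody secretion list 0 of 15 tested genes passed. At an unadjusted p under 0.05 there were 0 higher and 4 lower in the high group, against 14.4% of all genes in either direction. The median log2 fold change was -0.31. The list's 16 genes summed to 1048, 776 and 1014 CPM across the high litter size libraries, against 1406, 1136 and 1258 CPM across the low ones, without overlap of the groups. Most of this sum came from Xbp1, Txndc5, Sdc1 and Creld2 in each library. Mzb1, Irf4, Slamf7 and Pou2af1 each overlapped between the groups. The 4 genes lower at an unadjusted p under 0.05 belong to the secretory machinery that other secreting cells use as well. Sec11c, a subunit of the signal peptidase, had 38.3, 33.6 and 34.1 CPM across the high litter size libraries, against 107, 88.6 and 72.6 CPM across the low ones (log2 fold change -1.34, SE 0.20, edgeR adjusted p = 0.14). Fkbp11, a prolyl isomerase of the endoplasmic reticulum, had 11.6, 5.30 and 10.3 CPM across the high litter size libraries, against 42.0, 25.6 and 35.5 CPM across the low ones (log2 fold change -1.92, edgeR adjusted p = 0.162). Creld2, induced by stress of the endoplasmic reticulum, had a log2 fold change of -1.37 (edgeR adjusted p = 0.188), and Txndc5, a disulfide isomerase, had -0.58 (edgeR adjusted p = 0.343). For all 4, picked as the smallest p of the list, the high libraries lay below the low libraries. Of all genes, 19.5% had groups that did not overlap. DESeq2 called Sec11c, Fkbp11 and Creld2 but not Txndc5 (adjusted p = 0.154), where it called 6.56% of all genes given an adjusted p.

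Of the 15 tested genes 5 had positive and 10 negative log2 fold changes, and the following are named after their values were seen. Mzb1, a chaperone of B and plasma cells, had 5.66, 4.74 and 2.56 CPM across the high litter size libraries, against 4.73, 6.02 and 7.12 CPM across the low ones (log2 fold change -0.46, edgeR adjusted p = 0.649). Xbp1, the transcription factor of secretory cells, had a log2 fold change of -0.16 (SE 0.25, edgeR adjusted p = 0.803). Irf4 and Prdm1, transcription factors of plasma cell differentiation, had -0.74 and 0.46 (edgeR adjusted p = 0.646 and 0.685). Slamf7, a surface receptor of plasma cells, had 0.26 (edgeR adjusted p = 0.808), and Pou2af1, a B cell coactivator, 0.091 (edgeR adjusted p = 0.953). Tnfrsf17, the survival receptor of plasma cells, had 13, 0 and 6 counts across the high litter size libraries, against 3, 7 and 16 across the low ones, and was not tested. High replicate 3 had 0 counts of Tnfrsf17 and the lowest Igha, but the highest Irf4 of the 6 libraries (18.3 CPM). Low replicate 1 had 3 Tnfrsf17 counts with 438 CPM of Igha, and high replicate 4 had 6 with 115 CPM.

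Pigr, which carries polymeric IgA and IgM through epithelial cells, had 70.8, 58.1 and 454 CPM across the high litter size libraries, against 1446, 881 and 277 CPM across the low ones. High replicate 4 lay above low replicate 5, and the log2 fold change was -2.16 (SE 0.98, edgeR adjusted p = 0.377). Pigr did not follow Igha: low replicate 5 held the most Igha and the least Pigr of the low group, and high replicate 1 had 553 CPM of Igha with 70.8 CPM of Pigr. In the list of antibody transport and Fc receptors 0 of 9 tested genes passed (median log2 fold change 0.38). At an unadjusted p under 0.05 there were 0 in either direction, against 14.4% of all genes. Fcgrt, the neonatal Fc receptor that transports and protects IgG, had 0.77 (SE 0.41, edgeR adjusted p = 0.442). Fcgr3 and Fcgr4, Fc receptors of myeloid cells that bind IgG, had 0.46 and 0.62 (edgeR adjusted p = 0.439 and 0.653).

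Among homing and survival signals 0 of 13 tested genes passed, with a median log2 fold change of 0.48. At an unadjusted p under 0.05 there were 2 higher and 1 lower, against 14.4% of all genes in either direction. Vcam1, an adhesion molecule for lymphocytes, had 0.85 (SE 0.23, edgeR adjusted p = 0.222). Tgfb1, a cytokine that directs switching to IgA, had 0.91 (SE 0.27, edgeR adjusted p = 0.252), and for both genes all high libraries lay above all low libraries. DESeq2 called Vcam1 (adjusted p = 0.0387), where it called 6.56% of all genes given an adjusted p. The lower one was Tnfsf13, the plasma cell survival factor APRIL, named for that count, with -0.99 (SE 0.41, edgeR adjusted p = 0.345) and overlapping groups. Ccl28, a mucosal chemokine that draws IgA-secreting cells and was picked here after its values were seen, had 4.75, 14.7 and 139 CPM across the high litter size libraries, against 470, 217 and 219 CPM across the low ones. All high libraries lay below all low libraries (log2 fold change -2.52, SE 1.18, edgeR adjusted p = 0.39). High replicate 1, with the second highest Igha of the 6, had the lowest Ccl28.

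**Figure D5:**
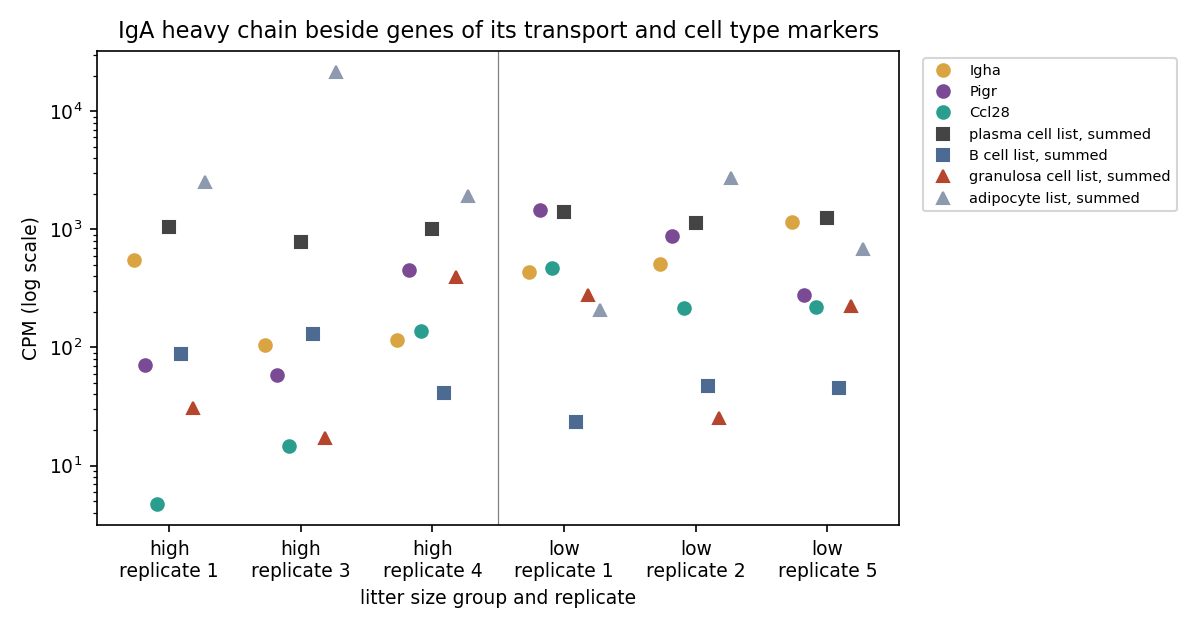
Levels of Igha, Pigr and Ccl28 and summed levels of 4 marker lists in each library, in CPM on a log axis, with the high litter size libraries on the left. Ccl28 is 4.75 to 139 CPM in the high and 217 to 470 CPM in the low libraries. The plasma cell list is 776 to 1048 CPM in the high and 1136 to 1406 CPM in the low libraries. Most of that list's sum is Xbp1, Txndc5, Sdc1 and Creld2. The granulosa cell list is lowest in high replicates 1 and 3 and low replicate 2.

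The remaining lists were of class switching and of other cells that the tissue could hold, and 0 of their tested genes passed with edgeR. Among class switching and germinal centre genes 0 of 6 had an unadjusted p under 0.05, with Fas at 0.97 and Gcsam at 0.76 (log2 fold changes). In that list 4 genes were positive and 2 negative, with a median of 0.39. Without high replicate 3 the log2 fold change of Fas was 0.18. Of 10 T cell genes 0 had an unadjusted p under 0.05, with Trac, a T cell receptor chain, at 1.43 and Cd8a at 0.78. The T cell log2 fold changes were positive for 7 genes and negative for 3, with a median of 0.30. Of 4 tested lymph node genes 0 had an unadjusted p under 0.05, with Ccr7, a homing receptor of lymphocytes, at 0.89. Cxcl13, the chemokine of B cell follicles and named after its values were seen, had 34.1 CPM in high replicate 3 and 0.817 to 3.67 CPM in the other 5 libraries. The epithelial mucin Muc1 had a log2 fold change of -2.96 (SE 0.69, edgeR adjusted p = 0.191) and Ltf -2.26 (SE 1.27, edgeR adjusted p = 0.47). Both are of the uterus list, in which 3 genes were positive and 5 negative, with a median of -0.12. An unadjusted p under 0.05 was found for 14.4% of all genes in either direction. Higher in the high group at that p were 5 of 6 stratified epithelium, 2 of 7 adipocyte, 2 of 5 red cell and 1 of 5 luteal genes. Lower were 1 of 5 oviduct and 1 of 8 uterus genes. Granulosa and oocyte genes had 0 of 7 and 0 of 8. Stratified epithelium genes had a median log2 fold change of 4.11, with Krt15 at 5.94 and Trp63 at 3.76, and adipocyte genes 2.63, with Pparg at 2.27 and Cidea at 4.08. DESeq2 called Trp63, Krt15, Krt5 and Col17a1 of the stratified epithelium list, Pparg and Cidea of the adipocyte list and Muc1 of the uterus list, Krt5 and Col17a1 being named only for these calls. Of all genes given an adjusted p, DESeq2 called 6.56%. The part of these cell types in the antibody levels was not tested.

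The genes nearest to the antibody genes across the 6 libraries were found by Pearson correlation of log2 CPM. The 14454 genes searched had a mean of at least 1 CPM. Immunoglobulin segments, genes without a symbol and predicted models (Gm or Rik names) were left out. With 6 libraries many genes lie close to any pattern, and the values are descriptive. Igha was closest to Rgma (r = 0.992), Tmem100 (0.989) and Cald1 (0.989), and 76 genes reached 0.95. Jchain was closest to Tceal3 (r = 0.997), Flnc (0.996) and Tmem100 (0.995), and 74 genes reached 0.95. Igkc was closest to Popdc2 (r = 0.999), Shisal1 (0.982) and Aqp8 (0.979), with 54 at 0.95 or above. Ighm was closest to Cdip1 (r = 0.999), Osbpl11 (0.997) and Gbp11 (0.997), and 279 genes reached 0.95, a pattern in which high replicate 3 stood far above the rest. Among the antibody genes, Igha had r = 0.990 with Jchain, 0.946 with Iglc2 and 0.931 with Igkc, and r = -0.699 with Ighm.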

How the data were processed

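Ovarian RNA of 6 libraries was measured by RNA sequencing, and the deposited table holds estimated counts per gene, as whole numbers, from reads handled with Trim Galore and kallisto against GRCm38, per the submitters' processing notes. Versions are not given in the sources used here. DESeq2 is named there too, and none of the submitters' results with it was used. The 10 members and all gene lists were chosen with earlier results of these data known.

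Of 36727 gene identifiers, 35869 matched a symbol in RefSeq's gene table and 35948 the GENCODE M21 annotation. Genes were kept with edgeR's filter (minimum count 10, minimum total 15), scaled by TMM and tested with edgeR 4.0.16 (quasi-likelihood, both groups, no covariates) in R 4.3.3. p-values were adjusted by Benjamini-Hochberg over all 16455 genes at a threshold of 0.05. Alternatives were DESeq2 1.42.0, limma 3.58.1 voom, the edgeR likelihood ratio test, other scalings and filters, and each library left out. The setting without the 3 libraries low in granulosa genes and the one with the longest transcript were chosen after seeing the data.

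Levels were divided by the length of the shortest annotated transcript, the secreted form, where genes were compared. Shares and log2 ratios were compared by exact two-sided permutation (scipy 1.17.1), and the smallest p this gives is 0.1. Genes outside the 10 were named by rule: the other constant region genes, for each list the 2 tested genes of smallest p (4 for the B cell, plasma cell and transport lists), and for likeness the 3 of highest r with Igha, Ighm, Igkc and Jchain. Exceptions are said to be so beside their values, or are markers that show a library's makeup. Sequences come from GENCODE M21 transcripts. The test was checked on simulated counts with a common dispersion for all genes and no differences in cell makeup between libraries. The check does not cover such differences. No library's values were identical to another's. Some genes that the rule would name are not reported here.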

Additional observations from a re-analysis of the deposited data

How the results depend on the processing

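Of 149 alternative values of single genes, 8 had the other sign and 2 passed the threshold. Called genes numbered 1 of 10 with DESeq2 and 1 with the likelihood ratio test, Iglc2 in both, and 0 in the other settings. DESeq2 called 6.56% of all genes given an adjusted p. The share of all genes called by the likelihood ratio test is not given here, so its call cannot be set against a background. Leaving out 1 library gave log2 fold changes from -0.78 to 0.21 for Ighd, from -1.08 to 0.88 for Ighg1 and from -1.23 to 0.35 for Ighg2b. Ighg1 was -0.59 with limma voom and -3.13 without the 3 libraries low in granulosa genes. The IgG share difference ran from -1.18 to 7.37 percentage points with 1 library left out, and was -2.91 without those 3 and -1.72 with the longest transcripts. The light to heavy log2 ratio, high minus low, was -0.019 with counts not divided by length and -0.17 with the longest transcripts. The J chain log2 ratio ran from -0.31 to 0.059 with 1 library left out, and was 0.15 without those 3. The cause was not tested. The IgA share difference kept its sign in every setting, from -34.1 to -13.9 points with 1 library left out, and with the longest transcripts it was -30.2 points (exact permutation p = 0.2). No paired analysis was run because the labels state no pairing of libraries between the groups. With 3 libraries a group and 7 to 21 counts, Ighd limits what can be said of IgD, and no library quantity could reach p under 0.1.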
